A study of Homo sapiens with 80 samples.

Results

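Small nucleolar RNAs (snoRNAs) and small Cajal body RNAs (scaRNAs) were examined in RNA-Seq libraries of Jurkat T cells exposed to 9 g, to 300 g or to heat. The set comprised every row of the count table whose gene symbol begins with SNORD, SNORA or SCARNA followed by a number, and whose mean raw count over the 80 libraries was at least 20. This gave 77 of 553 rows with such a symbol, among 60663 genes in the table, namely 34 box C/D snoRNAs (SNORD), 38 H/ACA snoRNAs (SNORA) and 5 scaRNAs (SCARNA). The members were thus chosen by their mean count, and no comparison between groups was used. The 3 members nearest to the minimum had mean counts of 20.1 (SNORD116-17), 20.2 (SNORD111) and 21.4 (SNORA37), and the 3 rows just below it had 18.1 (SNORA9B), 17.8 (SCARNA9) and 17.8 (SNORD67).

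Jurkat is a human T lymphocyte line, and the E6-1 cells used here are 1 clone of it. In the 9 g experiment, cells in 1 mL pipettes were spun at 9 g in a pipette centrifuge, and the spin lasted 20 s in the group hypg20s and 75 s in hypg75s. In the groups hypg3, hypg5, hypg7, hypg9, hypg15 and hypg60 it lasted 3, 5, 7, 9, 15 and 60 min. Control cells were incubated at 1 g without a spin, for 15 min in Ctrl, with which the groups up to hypg15 were compared, and for 60 min in Ctrl60, with which hypg60 was compared. All groups but hypg60 and Ctrl60 were incubated for 15 min in total. In the other experiment, cells received 5 min of 300 g in a tabletop centrifuge. They were lysed 1 min (wait1min), 4 min (wait4min) or 15 min (wait15min) after the stop. Other cells were heated to 42 °C for 5 min (heat). The controls (CtrlA) were at 1 g and were fixed directly, without a spin, heating or a waiting time. Handling and elapsed time thus differ from CtrlA together with 300 g or heat, and cannot be told apart from them in comparisons with CtrlA. Each 9 g group had 6 libraries and each group of the other experiment had 4. Library 75 of hypg15 was left out, because it lacks counts on a large part of the genome, so that hypg15 had 5 libraries and 79 libraries were used. The sources used here do not say whether the libraries of a group came from separate cultures, so the p-values measure the spread between these libraries, which may be technical.

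SnoRNAs are short nuclear RNAs that pair with ribosomal RNA. Box C/D snoRNAs guide methylation of the ribose, and H/ACA snoRNAs guide the change of uridine to pseudouridine, each within a particle of a few core proteins (fibrillarin, NOP56, NOP58 and SNU13, or dyskerin, NOP10, NHP2 and GAR1). ScaRNAs carry the same motifs and guide the modification of spliceosomal RNAs in Cajal bodies. In human cells most of them are cut out of the introns of host genes, many of which code for ribosomal or translation proteins or are the non-coding SNHG genes, while U3 and U13 are transcribed from genes of their own. A few, such as U3 (SNORD3), U14 (SNORD14) and U17 (SNORA73), serve in the cleavage of the ribosomal RNA precursor.

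Total counts ran from 22634465 to 41893490 in the 9 g libraries and from 24417717 to 41220541 in the 300 g and heat libraries. All 10 T cell markers on the list were expressed. Of 12 markers of other cell types, CD79A, a B cell gene, lay between 28.0 and 72.2 CPM, the others at most at 1.08 CPM, and KLRF1, a marker of natural killer cells, at 0. Levels are CPM, counts scaled to a common library size after TMM normalization, and differences are log2 fold changes with their standard error (SE) from edgeR's quasi-likelihood test, adjusted over all genes tested. A member is called higher or lower where this adjusted p was below 0.05. Libraries of hypg3 and hypg15 are numbered 69 to 80 while the other groups at 9 g have numbers 1 to 48, and this number range and these groups cannot be told apart in their comparison with Ctrl.

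The members differed widely in level. SNORD3A, the main U3 gene, held 73.1% of all counts on members, and 6 members had a mean count of at least 1000. Per kilobase of exon, the mean count was 81945 for SNORD3A, 5417 for SNORD17 and 3090 for SNORD104 among the box C/D snoRNAs. It was 35074 for SNORA73B, 3969 for SNORA5C and 2997 for SNORA12 among the H/ACA snoRNAs, and 7992 for SCARNA21, 6442 for SCARNA5 and 3773 for SCARNA6 among the scaRNAs. The members were 68 to 791 bases long, with a median of 133 bases, and 13 had 200 bases or more.

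Of the 476 rows below the minimum, 310 had no count in any library, and 64.5% of these overlap an exon of another gene on the same strand, against 16.9% of the 166 with some counts and 2.6% of the members. Reads that overlap more than 1 gene were not counted by the authors, so a row at 0 does not show that the RNA was absent. SNORD118 (U8), SNORD22, SNORA73A, SCARNA2, SCARNA13 and SCARNA17 were among the rows at 0. For 7 members, more than 50% of the 50-base windows of the sequence also occur in the GENCODE 29 record of another small RNA or pseudogene (SNORD3A, SNORD3B-1, SNORD3B-2, SNORD3C, SNORD62A, SNORD62B and SNORD116-17). The counts of these near-identical copies rest on the reads that map to a single place and are uncertain as values of 1 gene.

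The sequences of 8 members on which the results below turn are shown 5′ to 3′ as transcribed, from GENCODE 29 on GRCh38. In box C/D members the capitals mark the first TGATGA, the letters of box C, and the last CTGA, the letters of box D, and in H/ACA members the ACA that lies 3 bases before the 3′ end. SCARNA6 and SCARNA21 are marked by whichever of these motifs they hold. SNORD3A (chr17:19188016-19188232, plus strand) is U3, whose record in the count table starts at the same base and ends at 19188714. SNORD17 (chr20:17962710-17962946, minus strand) lies in SNX5, and SNORD14E (chr11:123058077-123058161, minus strand), a U14 copy, in an intron of the chaperone gene HSPA8. SNORD11 (chr2:202293051-202293134, plus strand) lies in NOP58. SNORA73B (chr1:28508559-28508762, plus strand) is U17b in RCC1, SNORA23 (chr11:9428773-9428954, plus strand) lies in IPO7, SCARNA6 (chr2:233288676-233288940, plus strand) in ATG16L1 and SCARNA21 (chr17:7906122-7906260, plus strand) in CHD3.
SNORD3A: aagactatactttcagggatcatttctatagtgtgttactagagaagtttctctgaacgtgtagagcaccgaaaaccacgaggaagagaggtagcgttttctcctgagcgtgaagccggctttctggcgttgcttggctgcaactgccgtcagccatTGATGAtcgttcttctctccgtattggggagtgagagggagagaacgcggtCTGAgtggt
SNORD17: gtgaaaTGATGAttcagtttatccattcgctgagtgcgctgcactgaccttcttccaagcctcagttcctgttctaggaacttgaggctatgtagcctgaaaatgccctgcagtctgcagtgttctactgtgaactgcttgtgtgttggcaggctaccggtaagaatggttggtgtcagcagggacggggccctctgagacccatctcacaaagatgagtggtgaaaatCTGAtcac
SNORD14E: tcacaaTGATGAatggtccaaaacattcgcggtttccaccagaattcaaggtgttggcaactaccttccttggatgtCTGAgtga
SNORD11: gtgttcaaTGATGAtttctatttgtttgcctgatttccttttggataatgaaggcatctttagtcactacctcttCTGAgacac
SNORA73B: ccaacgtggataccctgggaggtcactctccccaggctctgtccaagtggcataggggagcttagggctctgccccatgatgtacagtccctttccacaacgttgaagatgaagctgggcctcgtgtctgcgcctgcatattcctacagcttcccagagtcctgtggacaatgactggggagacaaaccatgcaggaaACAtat
SNORA23: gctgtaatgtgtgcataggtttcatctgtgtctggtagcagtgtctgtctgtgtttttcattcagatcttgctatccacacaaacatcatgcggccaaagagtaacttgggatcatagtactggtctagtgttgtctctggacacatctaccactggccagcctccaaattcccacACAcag
SCARNA6: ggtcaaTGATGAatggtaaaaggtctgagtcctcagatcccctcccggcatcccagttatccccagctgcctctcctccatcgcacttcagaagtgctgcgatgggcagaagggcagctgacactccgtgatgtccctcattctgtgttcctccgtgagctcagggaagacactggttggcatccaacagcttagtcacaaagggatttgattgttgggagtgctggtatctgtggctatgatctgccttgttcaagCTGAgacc
SCARNA21: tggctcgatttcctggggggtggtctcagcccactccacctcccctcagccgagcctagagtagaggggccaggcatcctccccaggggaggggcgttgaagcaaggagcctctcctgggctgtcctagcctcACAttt

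The classes by name and by motif went together in part. CTGA occurred within the last 20 bases of 34 of 34 box C/D members, 5 of 38 H/ACA members and 3 of 5 scaRNAs, and TGATGA within the first 20 bases of 18, 0 and 3 of them. ACA stood 3 bases before the 3′ end in 28 of 38 H/ACA members, 2 of 34 box C/D members and 2 of 5 scaRNAs. Only the transcribed strand and these exact letters were searched.

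The first comparison asked what a short spin at 300 g, as used to pellet cells, changed in these RNAs, and whether the time until lysis mattered. The members were mostly lower after 300 g than in CtrlA. At wait1min, 46 of 77 members were called lower and 2 higher, where 40.1% of all genes tested were lower and 41.4% higher. At wait4min, 48 were lower and 4 higher (all genes 40.6% and 41.7%), and at wait15min 47 were lower and 3 higher (all genes 40.5% and 41.8%). With a change of over 2-fold also required, 5 members were lower at wait1min, 20 at wait4min and 24 at wait15min, against 4.64%, 4.06% and 4.86% of all genes, and 1 member was higher at each waiting time (SNORD11), against 23.2%, 22.4% and 22.8% of all genes. Members held 0.204 to 0.219% of all counts in the CtrlA libraries, 0.130 to 0.170% at wait1min, 0.0861 to 0.0918% at wait4min and 0.0724 to 0.0916% at wait15min. SNORD3A alone made up 71.1 to 73.9% of the members' counts in CtrlA and 57.4 to 61.4% at wait15min. The other 76 members together held 0.0570 to 0.0609% of all counts in CtrlA, 0.0418 to 0.0508% at wait1min, 0.0323 to 0.0342% at wait4min and 0.0309 to 0.0354% at wait15min. With and without SNORD3A, the share lay below the control libraries in all 12 libraries after 300 g.

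All 3 classes had medians below 0. The median log2 fold change of the box C/D members was -0.37 at wait1min, -0.54 at wait4min and -0.54 at wait15min, with 19, 20 and 19 of 34 called lower. For the H/ACA members it was -0.45, -0.51 and -0.62, with 24, 23 and 23 of 38 lower and none of 38 higher. For the 5 scaRNAs it was -0.48, -1.13 and -1.12, with 3, 5 and 5 lower. The median over all genes tested was 0.01 at each waiting time, and over other genes with at most 300 bases of exon it was 0.34, 0.31 and 0.34, with the opposite sign to the members. Taken library by library, the median of the scaRNAs lay between -0.64 and -0.22 at wait1min and between -1.23 and -1.05 at wait4min, and these did not overlap.

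**Figure D1:**
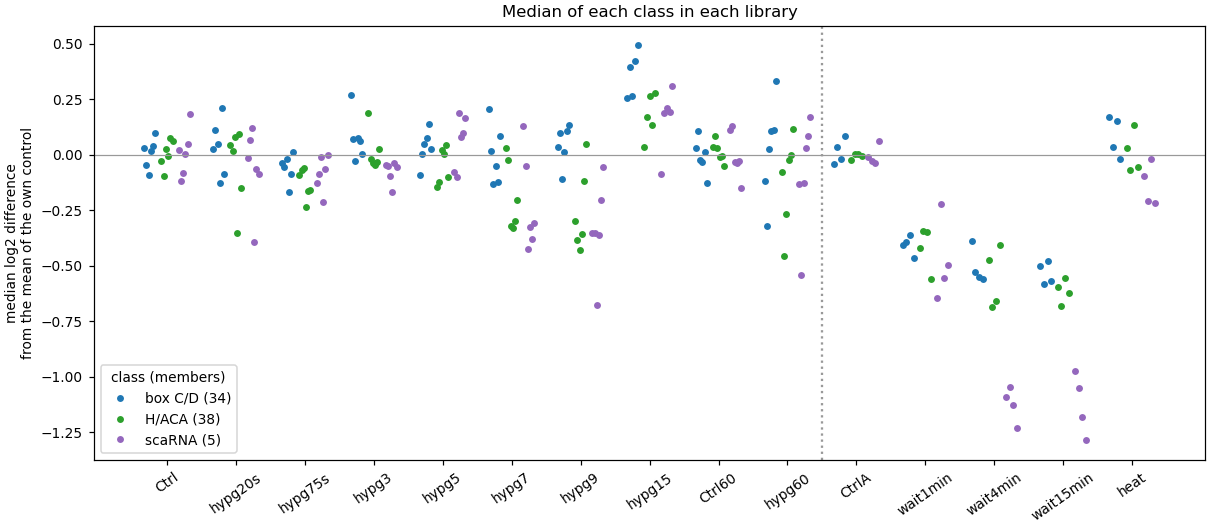
Median log2 difference of the members of each class from the mean of their own control group, 1 point per library, for the 10 groups of the 9 g experiment and the 5 groups of the 300 g and heat experiment (dotted line between them). After 300 g all 3 classes lie below CtrlA in all 12 libraries, and the scaRNA medians are lower at wait4min (-1.23 to -1.05) than at wait1min (-0.64 to -0.22).

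U3 RNA, which is needed for the first cleavages on the way to 18S ribosomal RNA, had the lowest log2 fold change of all members at wait4min and wait15min. SNORD3A stood at 1634, 1728, 1836 and 1678 CPM in the 4 CtrlA libraries, at 922, 1165, 1036 and 839.9 CPM at wait1min, at 491, 493, 546 and 526 CPM at wait4min and at 535, 462, 475 and 383 CPM at wait15min. The control, wait1min and later libraries did not overlap, while wait4min and wait15min did. Its log2 fold change from CtrlA was -0.80 ± 0.07 (adjusted p = 1.64e-08) at wait1min, -1.74 ± 0.04 (adjusted p = 1.28e-20) at wait4min and -1.89 ± 0.07 (adjusted p = 8.88e-15) at wait15min. The 3 other U3 records were lower as well. SNORD3B-1 was at 20.3, 20.3, 20.2 and 19.0 CPM in CtrlA and between 6.46 and 8.65 CPM in all 12 libraries after 300 g, and SNORD3B-2 fell from 23.9 to 26.1 CPM to 8.91 to 11.1 CPM at wait1min. Their log2 fold changes were -1.39, -1.51 and -1.50 (SNORD3B-1) and -1.34, -1.46 and -1.53 (SNORD3B-2) in the order of the waiting times, and those of SNORD3C were -0.93, -1.65 and -1.56. SNORD13 (U13), which serves in the acetylation of 18S ribosomal RNA and has its own promoter, was lower at -0.76, -1.29 and -1.52, from 9.70 to 11.3 CPM in CtrlA to 2.56 to 4.93 CPM at wait15min.

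Among the members that lie within a host gene, SNORD17 stood at 36.9, 41.5, 38.9 and 42.5 CPM in CtrlA and at 20.2, 18.9, 19.3 and 17.5 CPM at wait15min, a log2 fold change of -1.08 ± 0.06 (adjusted p = 3.01e-12). SNORA73B (U17b), an H/ACA RNA that serves in the cleavage of the ribosomal RNA precursor, went from 217, 223, 209 and 228 CPM in CtrlA to 89.8, 87.0, 86.8 and 80.6 CPM at wait4min (-1.35 ± 0.04, adjusted p = 8.6e-19). SNORA23 was at 14.9, 14.1, 14.3 and 14.2 CPM in CtrlA and at 6.25, 6.69, 6.39 and 6.26 CPM at wait4min (-1.17 ± 0.06, adjusted p = 1.12e-13). In each of these members the CtrlA libraries lay above every library after 300 g. SNORA53 showed the lowest mean change of the H/ACA members, at -0.72, -1.52 and -1.62, followed by SNORA5A at -1.26, -1.28 and -1.28. SNORA14B and SNORA79B had the smallest mean changes of the H/ACA members called lower at all 3 waiting times, with -0.44 and -0.81 at wait15min. In fits that each left out 1 of the 8 libraries, SNORA14B lost its call in 4 at wait4min and without library 51 of CtrlA at wait15min, and SNORA79B without library 51 at wait1min.

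The scaRNAs guide modification of spliceosomal RNAs, SCARNA5 (U87) and SCARNA6 (U88) that of U5. SCARNA6 stood at 30.7, 30.3, 30.0 and 32.6 CPM in CtrlA, at 19.7, 26.5, 21.0 and 19.5 CPM at wait1min and at 12.3, 13.6, 12.8 and 11.3 CPM at wait4min. The 3 sets of libraries did not overlap, and the log2 fold changes from CtrlA were -0.51 ± 0.08 (adjusted p = 1.66e-05) and -1.31 ± 0.06 (adjusted p = 2.37e-15). SCARNA5 fell from 52.4 to 56.2 CPM to 22.8 to 26.0 CPM at wait4min (-1.13) and SCARNA21 from 36.0 to 41.5 CPM to 14.3 to 17.0 CPM (-1.30). SCARNA7 (U90), which targets U1, was at -0.42 and SCARNA1, which targets U2, at -0.86 at wait4min, and neither was called at wait1min.

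The members called higher after 300 g were box C/D snoRNAs. SNORD11 stood at 0.948, 1.02, 0.717 and 0.642 CPM in CtrlA and at 1.93, 1.65, 2.25 and 1.41 CPM at wait1min, without overlap, and its log2 fold change was 1.13 ± 0.20 (adjusted p = 5.7e-05), 1.21 ± 0.18 (adjusted p = 1.95e-06) and 1.12 ± 0.19 (adjusted p = 2.74e-05) in the order of the waiting times. With a correction for GC content its sign turned, to -0.46, -0.30 and -0.40, where a smooth curve of each library's counts against GC content had been removed. The GC content of SNORD11 is 36.9%. SNORD62B was higher at 0.55, 0.63 and 0.81, and all of its windows also occur in SNORD62A. Its call at wait1min was lost without library 54 of wait1min. SNORD19 and SNORD6 (0.44 and 0.54) were higher at wait4min alone and SNORD19C (0.57) at wait15min alone, and these 3 were named after their values were seen. The call of SNORD19 was lost without library 51 of CtrlA or 57 of wait4min. With single libraries left out, H/ACA members were called higher as well, SNORA11F at wait1min without library 56, and at wait4min SNORA22B and SNORA22 without library 51 and SNORA22B without library 59, all 3 named after their values were seen. Scaled by total counts, 3 H/ACA members were higher at wait1min and 3 at wait4min, with the correction for GC content 3 at wait1min, and with all groups in a single model 1 at wait4min.

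Under each scaling more members were lower than higher. Scaled by total counts alone, with a median over all genes of 0.25 to 0.27, members called lower numbered 29, 37 and 37 and higher 7, 9 and 6 at wait1min, wait4min and wait15min, and the share of higher genes among all calls went from 50.8%, 50.6% and 50.8% to 62.0%, 63.0% and 63.0%. With the correction for GC content, with a median over all genes of -0.12 to -0.11, members lower numbered 52, 58 and 58 and higher 3, 1 and 1, and the share of higher genes was 40.8%, 41.2% and 41.2%. The T cell markers moved with 300 g too, with a summed level of 4086 to 4187 CPM in CtrlA and 2552 to 2734 CPM after 300 g. The 12 markers of other cell types summed to 61.5 to 63.7 CPM in CtrlA and 29.7 to 33.8 CPM after 300 g. Of these markers CD79A alone exceeded 1.08 CPM, so their sum mainly follows this gene and does not measure other cells within this clone. The part of either sum in the result was not tested. In bulk RNA, fewer cells of a kind and less RNA per cell cannot be told apart.

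**Figure D2:**
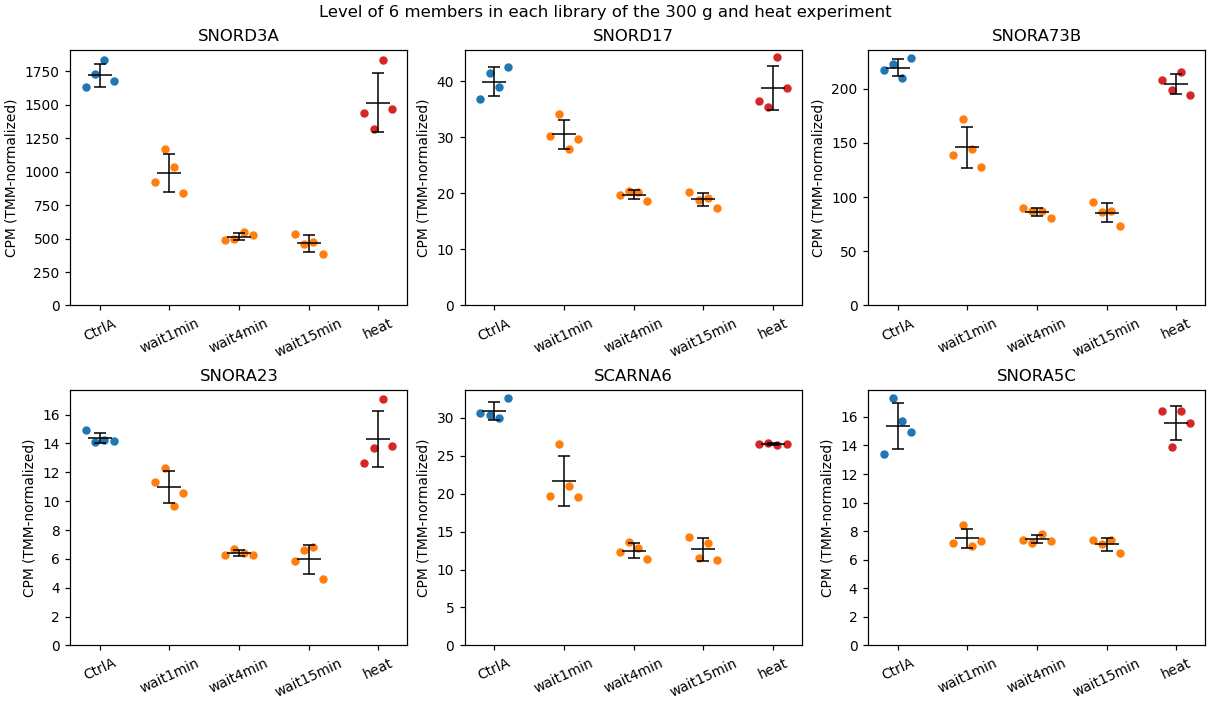
Level of 6 members (TMM-scaled CPM, linear axes from 0) in the libraries of CtrlA, wait1min, wait4min, wait15min and heat; points are libraries, bars the mean ± SD of 4 libraries. SNORD3A, SNORD17, SNORA73B, SNORA23 and SCARNA6 are lower at wait1min than in CtrlA and lower again at wait4min, whereas SNORA5C is at 6.99 to 8.45 CPM at wait1min and at 7.18 to 7.83 CPM at wait4min.

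The waiting times were then compared with each other. From wait1min to wait4min, 11 of 77 members were called lower and none higher, where 43 of 17462 genes (0.246%) were lower and 2 (0.0115%) higher, so that members made up 11 of the 43 lower genes. From wait1min to wait15min, 10 members were lower and none higher, against 24 of 17446 genes lower (0.138%) and 2 higher (0.0115%). From wait4min to wait15min no member of 76 tested was called by edgeR, with 4 at an unadjusted p below 0.05, and 0% of all genes were lower and 0.0115% higher. The lower members comprised 2 box C/D, 6 H/ACA and 3 scaRNAs from wait1min to wait4min, and 3, 4 and 3 from wait1min to wait15min. The column names of the deposited table call the wait1min libraries instant and the wait4min libraries 1min, and the sample titles were followed here.

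Between wait1min and wait4min, the log2 level of SNORD3A changed by -0.94 ± 0.06 (adjusted p = 1.36e-08). SNORA53 changed by -0.80 ± 0.13 (adjusted p = 0.00339), SCARNA6 by -0.80 ± 0.08 (adjusted p = 7.54e-06) and SNORA23 by -0.77 ± 0.08 (adjusted p = 7.42e-06). In all 4 members the wait4min libraries lay below every wait1min library. SNORA73B changed by -0.76 ± 0.06 (adjusted p = 1.17e-07), SNORA74A (U19) by -0.66 ± 0.11 (adjusted p = 0.00495) and SCARNA5 by -0.65 ± 0.06 (adjusted p = 3e-06). SNORD17 changed by -0.63 ± 0.06 (adjusted p = 1.31e-06) and SCARNA21 by -0.45 ± 0.08 (adjusted p = 0.00628). The comparison of wait15min with wait1min, which shares the wait1min libraries, gave the same 9 members values from -1.09 (SNORD3A) to -0.53 (SCARNA21). SNORA49 and SNORA12 were called at wait4min alone (-0.72 and -0.44) and SNORD15B at wait15min alone (-0.66), and none of these 3 was called between wait4min and wait15min. In fits that each left out 1 of the 8 libraries, these calls were lost in 6 (SNORA49), 5 (SNORA12) and 5 (SNORD15B). That of SCARNA21 was lost without library 60 at wait4min, and that of SNORA74A without library 55, 62 or 63 at wait15min. With the Wald test of DESeq2, 3 members were called from wait1min to wait4min (SNORD3A, SNORA73B and SCARNA5).

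Other members were low from the first waiting time on. SNORA5C, in an intron of TBRG4, stood at 13.4, 17.4, 15.7 and 14.9 CPM in CtrlA, at 7.18, 8.45, 6.99 and 7.33 CPM at wait1min and at 7.37, 7.18, 7.83 and 7.30 CPM at wait4min. The libraries of the 2 waiting times overlapped, with a difference of -0.01 ± 0.08 (adjusted p = 0.973). SNORA5A, in the same host, differed by -0.02 ± 0.13 (adjusted p = 0.968), SNORD3B-1 by -0.12 ± 0.08 (adjusted p = 0.562) and SNORD3B-2 by -0.12 ± 0.08 (adjusted p = 0.565). Among the U3 records, SNORD3A was thus called lower with waiting time while SNORD3B-1 and SNORD3B-2 were not, and the difference between them was not tested.

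The longer members had lower medians than the shorter ones. Of the 13 members with 200 bases or more, 12 were called lower at wait4min, with a median log2 fold change of -1.35, and of the 64 shorter ones 36, with a median of -0.51. Between wait1min and wait15min it was 6 of 13 (median -0.63) and 4 of 64 (median -0.12). RNA was extracted with silica columns, which retain short RNA poorly, and the part of recovery in this difference was not tested.

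The heat comparison asked whether 5 min at 42 °C changed the same RNAs. Of 77 members, 8 (10.4%) were called higher, against 10.6% of all genes, and 1 (1.30%) lower, against 10.2% of all genes. SNORD14E, a U14 copy in an intron of the heat shock cognate gene HSPA8, stood at 1.37, 1.33, 1.35 and 1.62 CPM in CtrlA and at 4.37, 4.29, 3.89 and 4.30 CPM after heat. The groups did not overlap, and the log2 fold change was 1.64 ± 0.12 (adjusted p = 1.83e-07), while HSPA8 itself was at -0.05 ± 0.03 (adjusted p = 0.196). Reads of unspliced HSPA8 also fall on SNORD14E, and their part in this change was not tested. SNORD3B-2 went from 23.9, 26.1, 25.0 and 25.2 to 49.8, 47.1, 57.4 and 52.5 CPM (1.11 ± 0.05, adjusted p = 2.62e-09), and SNORD3B-1 from 20.3, 20.3, 20.2 and 19.0 to 34.4, 31.3, 36.7 and 35.5 CPM (0.86 ± 0.05, adjusted p = 2.44e-08). Both thus rose after heat and fell after 300 g. SNORD3A was not called, at 1434, 1319.6, 1832 and 1469 CPM and -0.12 ± 0.07 (adjusted p = 0.239).

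The remaining calls after heat were smaller. SNORD13 rose by 0.38, SNORD104 by 0.37 and SNORA28 by 0.40, and, named after their values were seen, SNORD99 rose by 0.65 and SNORD88A by 0.52. SCARNA6, at 26.4 to 26.7 CPM against 30.0 to 32.6 CPM in CtrlA, was the 1 member called lower (-0.15 ± 0.05, adjusted p = 0.043). The class medians were 0.17 for box C/D, 0.06 for H/ACA and -0.04 for scaRNAs. Scaled by total counts, the share of higher genes among all calls after heat went from 51.1% to 65.8%, and with the correction for GC content to 29.6%. SCARNA6 and SNORA28 each lost their call in 6 of 8 fits that left out 1 library, and SNORD99 in 3 (library 51 or 52 of CtrlA, or 66 of heat).

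**Figure D3:**
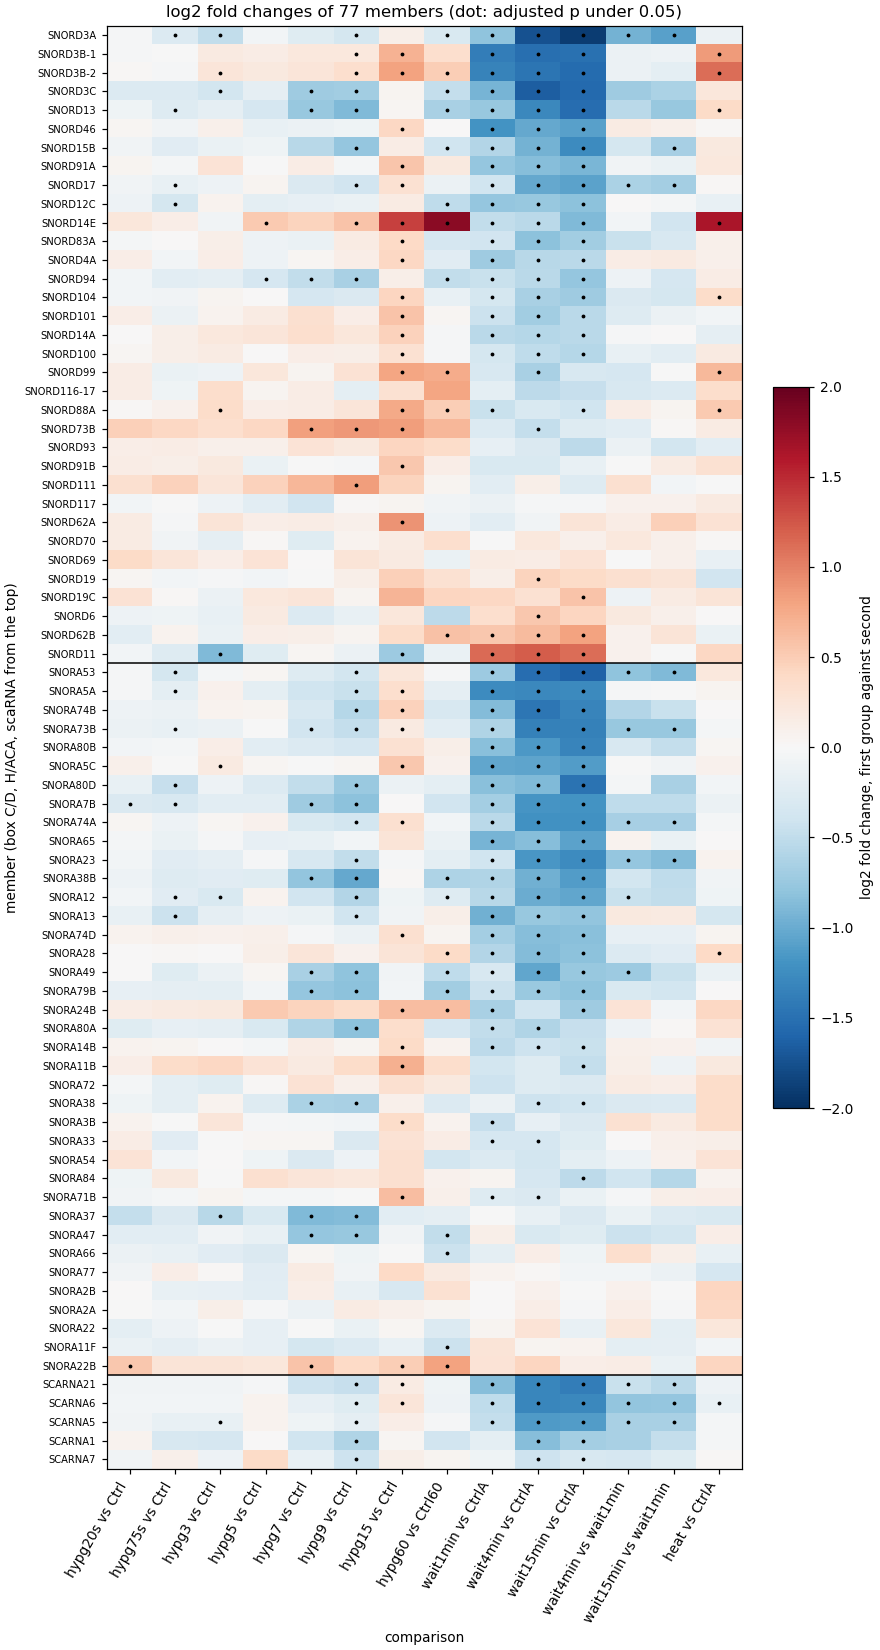
Log2 fold change of the 77 members (rows, by class and then by mean change after 300 g) in 14 comparisons (columns); colour runs from -2 (blue) to 2 (red) and a dot marks an adjusted p below 0.05 by edgeR's quasi-likelihood test. Blue cells prevail in the 3 columns of 300 g, where 46, 48 and 47 members are lower, and in the hypg9 column (28 lower), and red cells in the hypg15 column (31 higher).

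At 9 g, 2 to 13 of the 77 members were called at each time up to 7 min. After 20 s, 1 member was higher and 1 lower, where 6.66% of all genes were higher and 8.58% lower. After 75 s none of 77 was higher and 11 were lower (all genes 16.8% and 14.4%). At hypg3, 3 were higher and 6 lower (all genes 16.9% and 24.4%), after 5 min 1 and 1 (4.33% and 1.69%), and after 7 min 2 and 11 (6.64% and 6.19%). The group hypg9 had 5 higher and 28 lower (11.3% and 8.34%) and hypg15 31 higher and 1 lower (25.4% and 27.9%), and against Ctrl60, hypg60 had 8 higher and 13 lower (17.1% and 13%). Between the 2 controls, Ctrl60 and Ctrl, edgeR called no member in either direction (all genes 0.00621% and 0.00621%), with 4 at an unadjusted p below 0.05. The column names of Ctrl60 mention HEPES, a buffer, and those of Ctrl and hypg60 do not, so that in hypg60 against Ctrl60 such a difference in buffer and 9 g cannot be told apart. The share of members called lower stood above that of all genes at hypg7 (14.3% against 6.19%) and hypg9 (36.4% against 8.34%). The share called higher stood above it at hypg15 (40.3% against 25.4%). At hypg60 16.9% of members were lower, close to the 13% of all genes. With single libraries left out, 3 to 6 box C/D members, 3 to 7 H/ACA members and 0 to 1 scaRNAs were lower there.

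At hypg9, the H/ACA snoRNAs and scaRNAs that were called were all lower, while box C/D snoRNAs were called in both directions. Of 38 H/ACA members, 17 were lower and none higher (median log2 fold change -0.28), of 5 scaRNAs all 5 were lower (median -0.42), and of 34 box C/D members 6 were lower and 5 higher (median 0.06). Library 42 stood apart, with H/ACA and scaRNA medians against Ctrl of 0.05 and -0.06, within the range of the Ctrl libraries. Library 41 had -0.12 and -0.20. Libraries 37 to 40 had -0.43 to -0.30 for H/ACA and -0.68 to -0.35 for scaRNAs. They follow in number on libraries 33 to 36, the lower ones of hypg7 by H/ACA median. The part of library order was not tested. SNORA7B had 4.14, 4.84 and 5.45 CPM as the lowest, median and highest value in Ctrl and 1.89, 2.78 and 3.34 CPM in hypg9. The groups did not overlap, with a log2 fold change of -0.82 ± 0.12 (adjusted p = 0.000337). SNORA12 changed by -0.58 ± 0.11 (adjusted p = 0.00204) and SNORA73B by -0.48 ± 0.08 (adjusted p = 0.00136), and SNORA38B, named after its value was seen, had the lowest value of all members, -1.02 ± 0.16 (adjusted p = 0.000519). The scaRNAs ranged from -0.60 (SCARNA1) over -0.47 (SCARNA21), -0.42 (SCARNA7) and -0.24 (SCARNA6) to -0.18 (SCARNA5). With 1 of the 12 libraries left out at a time, 3 to 5 scaRNAs and 13 to 17 H/ACA members were lower, and SCARNA5 lost its call in 8 of the 12 fits and SCARNA6 in 6.

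Of the box C/D members, SNORD13 was lowest, at 10.1, 11.1 and 13.6 CPM as the lowest, median and highest value in Ctrl and 5.31, 5.62 and 8.30 CPM in hypg9. The 2 groups did not overlap, and the log2 fold change was -0.89 ± 0.11 (adjusted p = 0.000112). SNORD13 was also lower at hypg7 (-0.75) and hypg60 (-0.64), and SNORD3C at hypg7 (-0.71), hypg9 (-0.70) and hypg60 (-0.47), where its call was lost in 10 of 12 fits that left out 1 library. SNORD3A, the main U3 gene, was at -0.35 ± 0.08 (adjusted p = 0.00807), while SNORD3B-1 and SNORD3B-2 rose (0.22 and 0.34), the former not called without library 42 of hypg9. The share of higher genes among all calls at hypg9 went from 57.5% to 73.6% with scaling by total counts and to 36.5% with the correction for GC content, and members called numbered 27 to 33 over all settings and left-out libraries.

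At hypg7, 8 of 38 H/ACA members and 3 of 34 box C/D members were lower, with class medians of -0.20 and 0.04. SNORA7B stood at -0.71 ± 0.15 (adjusted p = 0.00891). SNORA37, SNORA38B and SNORA47, named after their values were seen, and SNORA79B had values from -0.88 to -0.77. The call of SNORA79B was lost without library 35 or 36. Libraries 31 and 32 of hypg7 stood apart from the other 4, with H/ACA medians of 0.03 and -0.03 against Ctrl where the others had -0.33 to -0.20, and library 31 had a box C/D median of 0.21, above every Ctrl library. Without library 31 the members called rose from 13 to 25, of which 22 were lower, and without library 32 to 22, of which 20 were lower. The share of higher genes among all calls there was 51.8%, 67.3% with scaling by total counts and 33.5% with the correction for GC content.

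At hypg15 the members called were higher but for 1, with 17 of 34 box C/D, 12 of 38 H/ACA and 2 of 5 scaRNAs called higher and SNORD11 alone lower (-0.73). The class medians were 0.41, 0.26 and 0.13, and other short genes had a median of 0.39. SNORD3B-2 had 31.8, 36.2 and 41.7 CPM as the lowest, median and highest value in Ctrl and 60.1, 52.4, 63.6, 53.0 and 84.0 CPM in hypg15, without overlap (0.80 ± 0.11, adjusted p = 2.95e-05). SNORA5C changed by 0.53 ± 0.08 (adjusted p = 6.01e-05), SNORD104 by 0.43 ± 0.10 (adjusted p = 0.00252) and SNORD14A, the U14 copy in RPS13, by 0.46 ± 0.16 (adjusted p = 0.0223). SNORD3A was at 1644, 2010.0, 2011, 1930.2 and 5128 CPM, with library 80 far above the others and all 4 others below the lowest Ctrl library, and its change was 0.12 ± 0.23 (adjusted p = 0.664). Without library 80 its change was -0.30 ± 0.08 (adjusted p = 0.00699), and it was then the 1 member called lower. The call of SNORD11 was lost (-0.59), 28 members were higher, and the medians of the H/ACA members and the scaRNAs were 0.15 and 0.08. The call of SCARNA21 was lost without library 78 or 79, and 1 to 3 scaRNAs were higher with single libraries left out. SNORA73B, SNORD17, SNORA74A, SNORA3B and SNORD91B were no longer called, and SNORD19 and SNORA65 were called higher in addition. SNORA3B, SNORD91B, SNORD19 and SNORA65 were named after their values were seen. The call of SNORD14A was lost without library 77 or 79. With library 75 kept in the fit, 17 were higher and 1 lower. SNORA73B and SCARNA21 turned sign with the correction for GC content (-0.0035 and -0.12).

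Within the number range of 69 to 80, hypg15 was also compared with hypg3. Of 76 members tested, 6 were higher and none lower, where 1.7% of all genes were higher and 0.842% lower. These were SNORD14E (1.41 ± 0.17, adjusted p = 0.000723), SNORD3B-2 (0.53 ± 0.11, adjusted p = 0.0184), SNORD3B-1 (0.48 ± 0.10, adjusted p = 0.0128) and SNORA73B (0.25 ± 0.06, adjusted p = 0.0426), together with SNORD99 (0.87) and SNORA71B (0.53), named after their values were seen. The other members called higher at hypg15 against Ctrl were not called in this comparison, in which 70 of 76 members had a positive change. The median over members was 0.25, against 0.30 in the comparison with Ctrl, and that over all genes was -0.01. The class medians were 0.31 for box C/D, 0.22 for H/ACA and 0.25 for scaRNAs, and other short genes had a median of 0.20.

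**Figure D4:**
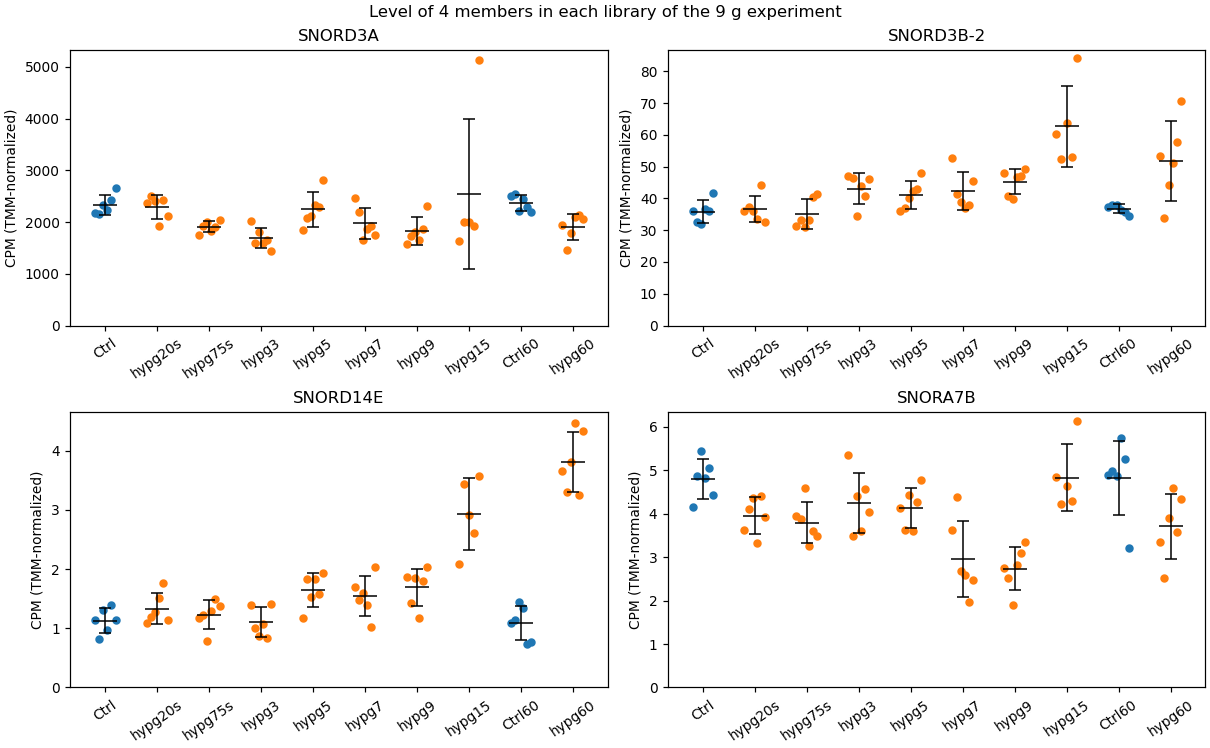
Level of SNORD3A, SNORD3B-2, SNORD14E and SNORA7B (TMM-scaled CPM, linear axes from 0) in the 10 groups of the 9 g experiment; points are libraries, bars the mean ± SD of 6 libraries (5 in hypg15). SNORD14E is highest at hypg15 (2.09 to 3.57 CPM) and hypg60 (3.26 to 4.47 CPM), SNORA7B lowest at hypg9, and SNORD3A has 1 hypg15 library at 5128 CPM.

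SNORD14E at hypg60 had the highest log2 fold change of all members at 9 g. It had 0.823, 1.14 and 1.39 CPM as the lowest, median and highest value in Ctrl, 2.09, 3.43, 2.92, 2.61 and 3.57 CPM in hypg15, 0.727, 1.11 and 1.44 CPM in Ctrl60 and 3.26, 3.73 and 4.47 CPM in hypg60. Neither hypg15 and Ctrl nor hypg60 and Ctrl60 overlapped. Its log2 fold change was 0.57 ± 0.15 (adjusted p = 0.0156) at hypg9, 1.36 ± 0.16 (adjusted p = 1.29e-05) at hypg15 and 1.80 ± 0.16 (adjusted p = 3.61e-06) at hypg60, against -0.08 ± 0.16 (adjusted p = 0.736) at hypg3. HSPA8, its host, was at -0.15, 0.23 and 0.34 at hypg9, hypg15 and hypg60. SNORD14A, with another host, was at -0.02 (adjusted p = 0.947) at hypg60. The change of SNORD14E was thus above that of HSPA8 at these times, a difference that was not tested. Per kilobase, the mean count of SNORD14E was 0.052 times that of the exons of HSPA8. Reads of unspliced HSPA8 also fall on SNORD14E, and their part in its change was not tested. After 300 g it was lower, at -0.50, -0.54 and -0.89, with HSPA8 at -0.74, -0.85 and -0.86, and its call at wait1min was lost without library 52 of CtrlA or library 53 or 55 of wait1min.

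At hypg60 the other higher members included SNORA22B (0.80 ± 0.14, adjusted p = 0.000763), which was also higher at hypg20s (0.54), hypg7 (0.57) and hypg15 (0.49), SNORD3B-2 (0.50), SNORA28 (0.38) and SNORD62B (0.58). The lower ones included SNORA79B (-0.69 ± 0.12, adjusted p = 0.000847), SNORD3A (-0.30), SNORD15B (-0.40) and SNORA12 (-0.26). In fits that each left out 1 of the 12 libraries, SNORD62B and SNORA12 each lost their call in 9, SNORD15B in 6 and SNORD3A without library 45 of hypg60. The class medians at hypg60 lay between -0.10 and -0.01. Library by library, the median over all members ran from -0.45 (library 44) to 0.22 (library 48), against -0.09 to 0.11 in the Ctrl60 libraries. The share of higher genes among all calls at hypg60 went from 56.8% to 69.6% with scaling by total counts and to 39.6% with the correction for GC content, and in the latter 33 members were called in place of 21.

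After 20 s, SNORA22B was higher (0.54) and SNORA7B lower (-0.28), but the call of SNORA7B was lost in 10 of 12 fits that each left out 1 library. After 75 s, SNORD3A was lower (-0.27 ± 0.05, adjusted p = 0.00163), with 1748, 1911 and 2040.5 CPM as the lowest, median and highest value against 2153, 2284 and 2657 CPM in Ctrl. SNORA53 (-0.35), SNORA12 (-0.23), SNORA73B (-0.16), SNORA5A (-0.19), SNORD13 (-0.26) and SNORD17 (-0.15) were lower with it, of which SNORA5A lost its call in 8 and SNORD13 in 5 such fits. At hypg3, SNORD3A was at -0.49 ± 0.08 (adjusted p = 0.000215), with SNORA12 (-0.31), SNORD3C (-0.36), SCARNA5 (-0.15) and SNORD11 (-0.89) lower and SNORD3B-2 (0.24) and SNORA5C (0.18) higher. Of these, SCARNA5 lost its call in 10 of 12 such fits, SNORA5C in 7, SNORD3C in 6 and SNORD3B-2 without library 69 of hypg3. At hypg5, SNORD14E (0.53 ± 0.15, adjusted p = 0.0477) was higher and SNORD94, named after its value was seen, lower (-0.34), and no member was called without library 4 or without library 6 of Ctrl. SNORD14E lost its call in 10 of the 12 fits. The share of higher genes among all calls moved from 43.7% to 57.7% at hypg20s, from 53.8% to 41.8% at hypg75s and from 71.9% to 37.5% at hypg5 with the correction for GC content.

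Host genes were compared with the members they contain, since an intronic snoRNA and its host come from 1 primary transcript. A same-strand gene contained 71 of the 77 members, 60 hosts in all, of which GNL3 (SNORD19, SNORD19C and SNORD69) and RPS12 (SNORD100, SNORD101 and SNORA33) held 3 members each. Reads from an unspliced host transcript also fall on the snoRNA, and 27 members had a higher mean count per kilobase than the exons of their host. The ratio was 30.3 for SCARNA5, 17.7 for SCARNA6, 16.5 for SNORA73B, 12.0 for SNORD17 and 9.37 for SNORD12C, and its median over the 71 pairs was 0.51, with a lowest value of 0.021. The 6 members with no host included SNORD13 and the 4 U3 records. Of the 71, SNORA53 overlaps an annotated exon of its host SLC25A3, so that it is not wholly intronic.

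Several members fell while their host rose after 300 g. IPO7, a nuclear import receptor gene that hosts SNORA23, was at 1.24, 1.20 and 1.18 at wait1min, wait4min and wait15min, where SNORA23 was at -0.40, -1.17 and -1.26. SNX5, the host of SNORD17, was at 0.66, 0.66 and 0.68 against -0.39, -1.02 and -1.08 of SNORD17. SNHG4, a non-coding host of SNORA74A, was at 0.56 and SNORA74A at -1.21 at wait15min. ATG16L1, which hosts SCARNA5 and SCARNA6, was at 0.08 to 0.09. In other pairs both were lower, as SNORA73B with RCC1 (-0.71 at wait4min), SCARNA21 with CHD3 (-0.36), SNORA5A and SNORA5C with TBRG4 (-0.81) and SNORA53 with SLC25A3 (-0.84). SNORD11 was higher together with its host NOP58 (1.96).

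In all, 10, 11 and 13 members were lower with a higher host at wait1min, wait4min and wait15min, and 29, 32 and 29 members were called in the same direction as their host. Spearman's rho between member and host changes was 0.47, 0.33 and 0.35 over the 71 pairs, as a description across genes that share libraries and reads. Against the controls of the 9 g groups and of heat it lay between -0.17 and 0.21. None of the 60 hosts was called between the waiting times, in contrast to 9 of the 71 hosted members from wait1min to wait15min. Of the 27 members denser than their host, 22 were lower at wait4min (median -0.96) and none higher, and of the 44 others 21 were lower and 4 higher (median -0.34). From wait1min to wait15min it was 7 of 27 (median -0.37) and 2 of 44 (median 0.00), and at hypg9 18 of 27 (median -0.39) and 7 of 44 lower (median 0.04). At hypg15, 10 members were higher with a lower host and 10 were called in the same direction as the host. SNHG12, the non-coding host of SNORD99, and SNHG17, that of SNORA71B, were higher there with their members (0.50 and 0.44).

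**Figure D5:**
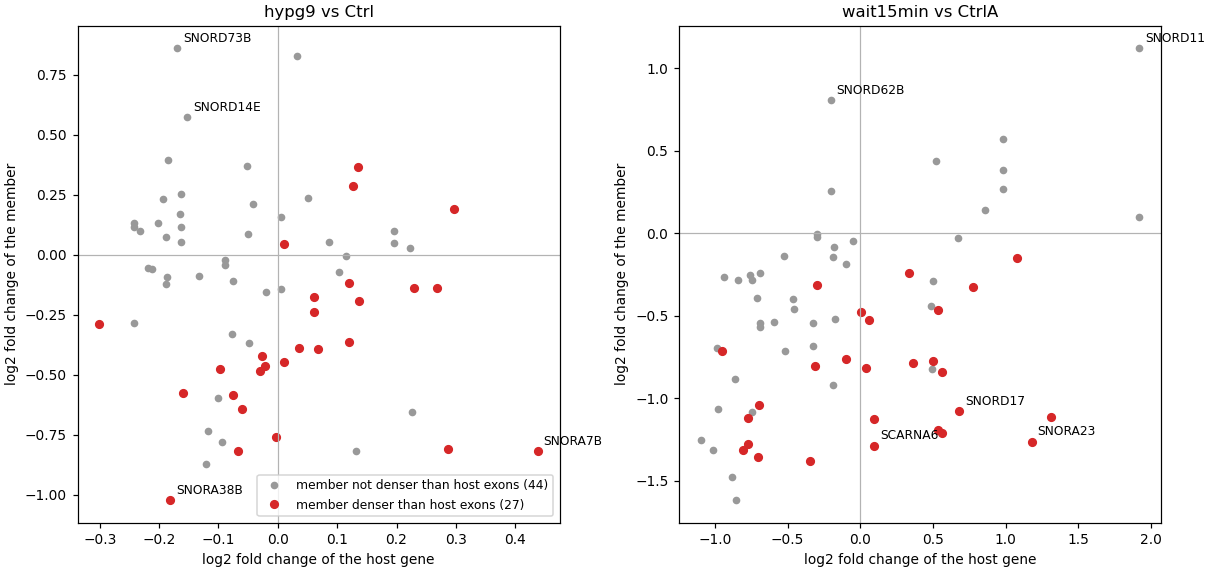
Log2 fold change of 71 members against that of their host gene at hypg9 against Ctrl (left) and at wait15min against CtrlA (right); each point is a member-host pair, red for the 27 members with a higher count per kilobase than the host's exons and grey for the 44 others. At wait15min the red points lie lower (median -0.84) than the grey ones (median -0.29) .

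The proteins of the snoRNA pathway were taken as a whole list of 34 genes for particle proteins, assembly, Cajal bodies, maturation and decay, of which 32 or 33 were tested. After 300 g, 16 were higher and 14 lower at wait1min, and 16 and 15 at both later times, where 41.4 to 41.8% of all genes were higher and 40.1 to 40.6% lower, and none was called between waiting times. Of the box C/D core proteins, NOP58 was higher (1.92 at wait15min) and FBL, fibrillarin (-1.09), was among 3 lower. Of the H/ACA core proteins 3 of 4 were lower, with NHP2 at -1.08. At hypg9, all 4 H/ACA core proteins were lower, DKC1 (dyskerin) at -0.22, NOP10 at -0.27, NHP2 at -0.14 and GAR1 at -0.29, and none of 4 box C/D core proteins was called. Of all genes 8.34% were lower at hypg9. Of the 4 H/ACA core proteins, 3 were also lower at hypg75s (14.4% of all genes), hypg3 (24.4%), hypg7 (6.19%), hypg15 (27.9%) and hypg60 (13%). It was 2 of 4 at hypg5 (1.69% of all genes) and 1 of 4 at hypg20s (8.58%). At hypg15, where 12 H/ACA snoRNAs were higher and none lower, DKC1 was at -0.37, NOP10 at -0.36 and GAR1 at -0.45.

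Over the 9 g course 32 genes of the list were tested, and of these 9 were lower after 20 s (8.58% of all genes), 16 after 75 s (14.4%), 23 after 3 min (24.4%) and 3 after 5 min (1.69%). At hypg7 and at hypg9 there were 9 (6.19% and 8.34% of all genes), at hypg15 there were 23 (27.9%) and at hypg60 there were 14 (13%), and 1 gene of the list was higher, at hypg15 (25.4% of all genes). After heat 3 genes of the list were higher and 7 lower, against 10.6% and 10.2% of all genes.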

How the data were processed

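RNA of Jurkat T cells was analysed in 79 of 80 libraries, and library 75 was left out. Total RNA had been extracted with a silica column kit, depleted of ribosomal RNA and sequenced as pairs of 100 bases. The authors deposited 1 table of raw counts per gene, made with featureCounts (version 2.0.3 in its header, 2.0.1 in the submitters' notes) after Trim Galore 0.6.5 and STAR 2.7.3a, on the reverse strand of hg38 with Ensembl 104. Pairs that map to several places or overlap several genes were not counted. The authors' program also deposited each gene's length in bases. Of 60663 usable genes, 60462 had a symbol, and 3 broken lines (ANK2) were dropped.

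Counts were tested in edgeR 4.0.16 (R 4.3.3, limma 3.58.1) by its quasi-likelihood F test, with TMM scaling, filterByExpr at a minimum count of 10 and a model of the 2 groups compared. The Benjamini-Hochberg adjusted p threshold was 0.05 over all genes tested. On simulated counts with 200 changed genes, it recovered 78.2% of 1.5-fold and 92.5% of 2-fold changes for hypg9 against Ctrl. For wait4min against wait1min it recovered 72% and 90.5%. The changed genes were drawn from all genes tested, so these shares do not measure recovery of the members. Medians per library used log2 of CPM plus 0.1. Python 3.11.15 with pandas 2.3.3, numpy 2.4.6, scipy 1.17.1 and matplotlib 3.10.9 served for summaries. Where a total count sets the precision, it covers counting error only, and read pairs are not independent molecules.

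Members and lists were chosen with earlier results of these data known. Named are, per class, the 3 members highest per kilobase, the 2 highest and 2 lowest by mean change among those called with 1 sign in at least 4 of the 8 comparisons at 9 g or in all 3 at 300 g, and likewise after heat, every member called between wait15min and wait1min, and members with special roles. Hosts are same-strand genes whose span contains a member. Alternatives were no filter, total counts, RLE factors, DESeq2 1.42.0, all groups in a single model, a correction for GC content, library 75 kept, and leaving out each library; leaving out libraries of the 9 g groups and the comparison of hypg15 with hypg3 were added after seeing the data.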

Additional observations from a re-analysis of the deposited data

Results flagged for a closer look

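Single libraries stood apart from the rest of their group, by a test of the gap to the nearest library, in 8 of 195 groups of values, where chance flags about 1 in 20. Library 80 of hypg15 held SNORD3A at 5128 CPM and SNORD17 at 87.2 CPM. Library 69 of hypg3 had a median log2 difference from Ctrl of 0.27 over the box C/D members and of 0.19 over the H/ACA members, the highest of 6. In CtrlA, library 52 was highest for SNORD14E (1.62 CPM) and library 49 for SNORA23 (14.9 CPM). In hypg75s, library 19 was highest for SNORD11 (0.543 CPM) and library 22 lowest for SCARNA21 (32.8 CPM).

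The change from CtrlA after 300 g differed between waiting times for 12 members, by the direct comparison of these groups with edgeR. From wait1min to wait4min the log2 difference was -0.94 for SNORD3A, -0.80 for SNORA53, -0.80 for SCARNA6, -0.77 for SNORA23, -0.76 for SNORA73B, -0.72 for SNORA49 and -0.66 for SNORA74A. It was -0.65 for SCARNA5, -0.63 for SNORD17, -0.45 for SCARNA21 and -0.44 for SNORA12. From wait1min to wait15min it was -1.09 for SNORD3A, -0.89 for SNORA53, -0.86 for SNORA23, -0.77 for SCARNA6, -0.76 for SNORA73B and -0.68 for SNORD17. It was -0.67 for SNORA74A, -0.66 for SNORD15B, -0.64 for SCARNA5 and -0.53 for SCARNA21.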

How the results depend on the processing

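The number of members called changed by over 1.5 times in 16 of 97 values under other settings. It went from 2 to 1 at hypg20s with no filter, with total counts and with all groups in a single model, and from 11 to 4 at hypg75s and from 9 to 4 at hypg3 with the single model. At hypg5 it went from 2 to 1 with no filter, 4 with total counts, 4 with DESeq2 and 6 with the GC correction, and at hypg7 from 13 to 21 with DESeq2, 20 with the GC correction and 20 with the single model. At hypg15 it went from 32 to 18 with library 75 kept, at hypg60 from 21 to 33 with the GC correction, from wait1min to wait4min from 11 to 3 with DESeq2, and from wait4min to wait15min from 0 to 1 with no filter. With single libraries left out, the counts ran from 1 to 2 at hypg20s, 0 to 3 at hypg5 (0 without library 4 or 6 of Ctrl), 10 to 25 at hypg7 (25 without library 31, 22 without library 32), 13 to 22 at hypg60 (13 without library 10 of Ctrl60) and 0 to 1 from wait4min to wait15min (1 without library 61). The GC correction turned the sign of SNORA73B (-0.0035) and SCARNA21 (-0.12) at hypg15 and of SNORD11 at wait1min (-0.46), wait4min (-0.30) and wait15min (-0.40). The cause of these changes was not tested. Of the other values of named members, 971 kept direction and call and 101 kept direction without the call. Among medians, 17 were marked as moved and 274 as the same under other settings, and 11 and 478 with single libraries left out. No paired analysis was possible because the library numbers are unique to each group.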
